A study of Homo sapiens with 8 samples.

Results

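The enzymes that write, maintain and remove DNA methylation were followed by their messenger RNA in human embryonic stem cells with and without a knockdown of NAT10. Of 10 genes chosen by name for these roles, 9 were found among the 17546 genes of the expression table by their Ensembl IDs and symbols. These were the DNA methyltransferases DNMT1, DNMT3A and DNMT3B, the maintenance factor UHRF1, the oxidases TET1, TET2 and TET3, the glycosylase TDG and the MBD-family protein MBD3. DNMT3L, a catalytically inactive partner of the de novo methyltransferases, has no row in the table and was not analysed here.

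The cells were H1, a single established line of human embryonic stem cells, grown without serum on Matrigel. Control cells had received lentivirus with GFP and a negative control shRNA, and knockdown cells had received the same kind of virus with an shRNA against NAT10. NAT10 is the acetyltransferase that places N4-acetylcytidine (ac4C) on RNA. In both groups GFP-positive cells were enriched after 48 h and expanded with puromycin at 0.5 ug/ml, so both groups carried a vector and had gone through selection. Each group had 4 poly(A) RNA-seq libraries. Whether each library stems from its own culture is not in the labels, so the p-values reflect the library-to-library spread alone, and that spread may be technical. With no rescue group among the samples, loss of NAT10, other effects of the shRNA and differences between the selected populations cannot be told apart.

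DNA methylation in mammals is the addition of a methyl group to cytosine, mostly where it is followed by guanine (CpG). DNMT3A and DNMT3B place new marks, while DNMT1 copies existing marks onto the new strand after replication, guided there by UHRF1, which recognises DNA methylated on only one strand. TET enzymes oxidise 5-methylcytosine, and TDG cuts out the most oxidised forms so that base excision repair can restore a plain cytosine. MBD3 resembles the methyl-CpG binding proteins and is a subunit of the NuRD chromatin remodelling complex. Human embryonic stem cells are known for high DNMT3B and TET1.

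Libraries held between 15574631 and 16305014 reads in genes. The values are normalized counts, that is, reads per gene divided by a size factor for each library. Values by library are given in the order of replicates 1 to 4. NAT10 itself was counted at 2207, 2285, 2048 and 2173 in the control libraries and at 1647, 1592, 1625 and 1644 in the knockdown libraries. Its mean fell by 25.3%, a partial reduction, with no overlap between the groups. Among markers that define human embryonic stem cells, controls held 6231 ± 171 counts of SOX2, 10620 ± 493 of LIN28A, 8004 ± 169 of TDGF1 and 543 ± 33.4 of NANOG (mean ± SD, n = 4). POU5F1 was counted at only 24.0 ± 5.63. Whether so low a count gives its RNA level or arose in the assignment of reads to genes was not tested. In bulk RNA, fewer cells that express a gene and less RNA per cell cannot be told apart.

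Promoter sequences are shown for MBD3 and TDG, which rose most in the comparison below, for UHRF1, the member with an E2F-type site, and for TET1, which did not pass the test. Each window holds the 250 bases before a transcription start, taken from RefSeq on GRCh38.p14 and written 5′ to 3′ on the gene's own strand. Capitals mark CCAAT boxes (CCAAT, or ATTGG on the other strand) and E2F-type sites, defined as TTTCCCGC, TTTGGCGC, TTTCGCGC or TTTGCCGC on either strand. No 2 marked sites overlapped in these windows. E2F factors are transcription factors of the S phase.
MBD3 (chr19:1592866-1593115, minus strand): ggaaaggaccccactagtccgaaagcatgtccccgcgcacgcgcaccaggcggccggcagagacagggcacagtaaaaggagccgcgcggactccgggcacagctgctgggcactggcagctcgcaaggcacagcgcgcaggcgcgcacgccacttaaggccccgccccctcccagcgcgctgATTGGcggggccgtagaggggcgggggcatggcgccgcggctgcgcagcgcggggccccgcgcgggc
TDG (chr12:103965622-103965871, plus strand): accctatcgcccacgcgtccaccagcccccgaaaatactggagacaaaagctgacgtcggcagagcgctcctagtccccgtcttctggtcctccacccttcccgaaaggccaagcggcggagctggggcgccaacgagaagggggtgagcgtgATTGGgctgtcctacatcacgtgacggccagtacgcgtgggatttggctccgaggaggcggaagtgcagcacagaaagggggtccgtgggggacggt
UHRF1 (chr19:4909251-4909500, plus strand, the first of 3 windows): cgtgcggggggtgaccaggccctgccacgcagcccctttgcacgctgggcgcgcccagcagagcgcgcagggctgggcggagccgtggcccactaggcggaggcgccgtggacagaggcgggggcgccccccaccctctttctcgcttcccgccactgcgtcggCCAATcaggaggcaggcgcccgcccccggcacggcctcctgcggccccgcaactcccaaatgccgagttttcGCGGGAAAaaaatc
TET1 (chr10:68560087-68560336, plus strand, the first of 3 windows): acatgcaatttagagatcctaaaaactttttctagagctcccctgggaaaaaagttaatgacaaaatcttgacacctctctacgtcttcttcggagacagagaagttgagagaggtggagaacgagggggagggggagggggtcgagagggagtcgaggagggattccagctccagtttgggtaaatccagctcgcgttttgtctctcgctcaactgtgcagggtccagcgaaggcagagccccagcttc

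The windows differed in CpG content, the substrate of the enzymes themselves. The MBD3 window held 32 CpG dinucleotides, the UHRF1 window 28, the TDG window 22 and the TET1 window 9, against a median of 11 over 35116 RefSeq windows of the same length. Windows not printed differ from this order: the single window of DNMT3B, called higher below, held 3, and the second window of TET2, not called, held 34. The start used for that DNMT3B window lay 17467 bases downstream of the gene's start in GENCODE, so its count need not describe the main promoter. The UHRF1 window held an E2F-type site that begins 14 bases before the start, and the next UHRF1 window held another. Windows with such a site made up 2.79% of all windows, and among the members UHRF1 alone held one, in 2 of the 20 member windows. CCAAT boxes were present in the MBD3, TDG and UHRF1 windows and in 32.0% of all windows. The TET1 window shown held neither motif, and each of the other 2 TET1 windows held 2 CCAAT boxes. Matches describe these letters only and are not evidence of binding.

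Levels were compared between genes per kilobase of annotated exon (GENCODE release 29), because long transcripts collect more reads. DNMT3B, the main de novo methyltransferase of human embryonic stem cells, stood far above the rest, with 7860 ± 215 normalized counts per kb in controls and 10778 ± 185 in knockdown cells (SD, n = 4). DNMT1 followed with 366 ± 11.0 per kb in controls and TET1 with 245 ± 6.04. DNMT3A came next with 177 ± 5.21 per kb, then TDG with 117 ± 2.54, MBD3 with 69.9 ± 3.35 and UHRF1 with 53.3 ± 3.67. TET3 was lower at 38.5 ± 1.63 per kb and TET2 was the lowest at 4.25 ± 0.320. In controls no 2 neighbours in this order overlapped between libraries. In knockdown cells DNMT3A ranked above TET1, at 282 ± 8.19 against 234 ± 6.34 per kb, while TET1 and TDG, at 224 ± 4.10, overlapped. Using the length of the principal transcript instead, a choice made after seeing the data, DNMT3B, DNMT1, TET1, UHRF1, TET3 and TET2 kept their ranks in controls, and MBD3 moved to rank 4, where it overlapped DNMT3A. With those lengths MBD3 and TDG, at 439 ± 23.2 and 338 ± 6.19 per kb, both lay above TET1 in knockdown cells.

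**Figure D1:**
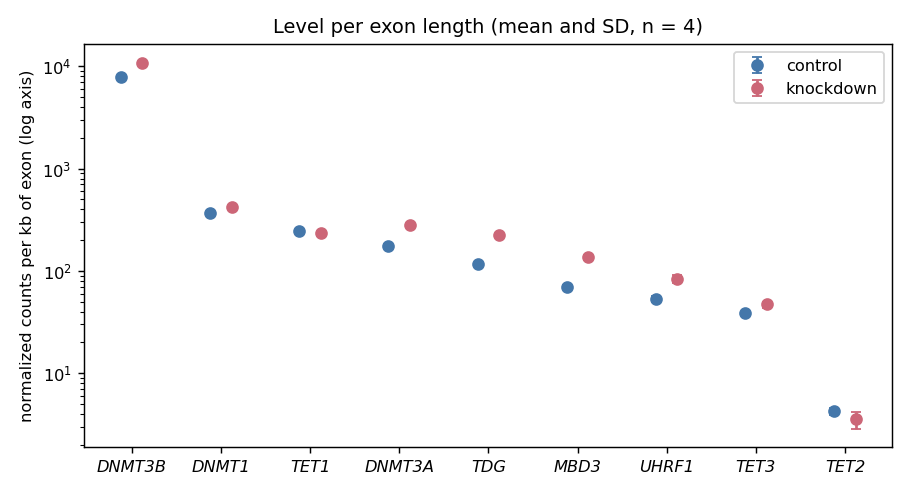
Level of each gene in normalized counts per kilobase of exon (log axis), ordered by the control mean; points are means and bars SD over 4 libraries per group. DNMT3B stood at 7860 per kb in controls and TET2 at 4.25.

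In the comparison of knockdown with control cells, 7 of the 9 measured genes were higher and 0 were lower at an adjusted p under 0.05 (limma on log2(value + 1), Benjamini-Hochberg adjustment over all 17546 genes). Over all genes 64.7% were called, 32.3% higher and 32.4% lower. When genes averaging under 5 CPM (reads scaled to library size) were left out, TET2 among them, 11690 genes remained, of which 39.8% were called higher and 32.7% lower. The 2 members that did not pass, TET1 and TET2, had unadjusted p-values of 0.0762 and 0.0510, so 0 of 9 were lower at an unadjusted p under 0.05 too, and edgeR and DESeq2 also called 0 lower. The median log2 fold change of the 9 genes was 0.46, against 0.0013 over all genes. The 7 members called higher were also those whose groups did not overlap, a state found for 56.7% of all genes. Scaling by library totals alone shifted the median log2 fold change over all genes by -0.11. Under that scaling 23.2% of genes were called higher and 41.9% lower, so higher calls made up 35.7% of all calls against 49.9%. The count of members called higher was again 7, and TET1 and TET2 were called lower.

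**Figure D2:**
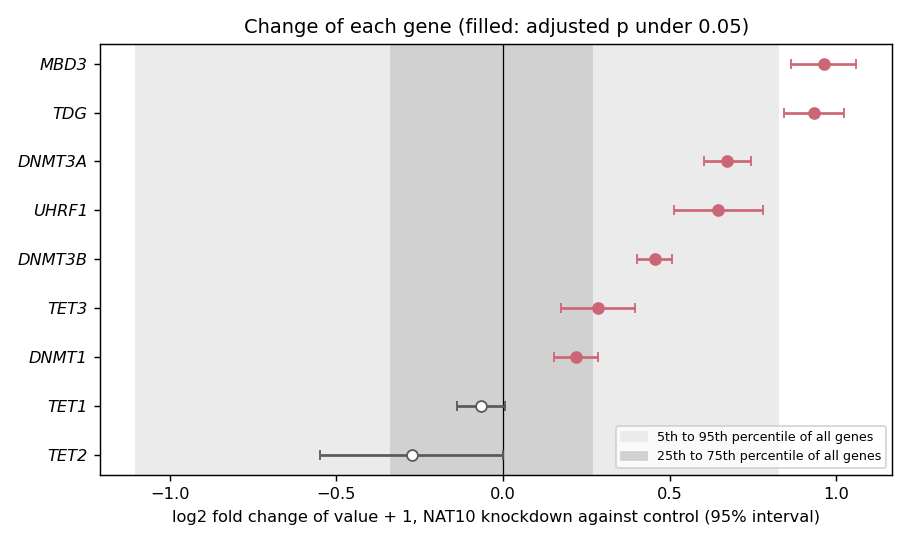
Log2 fold change of value + 1 for each gene with its 95% interval from limma; filled points passed an adjusted p of 0.05, and grey bands span the 25th to 75th and the 5th to 95th percentile of all 17546 genes. MBD3 and TDG lay above the 95th percentile of all genes (0.82), and TET1 and TET2 lay below 0.

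Among the de novo methyltransferases, both measured enzymes rose, DNMT3A by more than DNMT3B. DNMT3A (ENSG00000119772, hg38 chromosome 2, 25227855 to 25342590, minus strand) was counted at 2220, 2079, 2110 and 2102 in controls and at 3299, 3371, 3372 and 3532 in knockdown libraries. The lowest knockdown library thus lay well above the highest control library. Its mean rose 1.59-fold, a log2 fold change of 0.67 with a standard error of 0.0352 (limma adjusted p = 9.83e-23). DNMT3B (ENSG00000088305, chromosome 20, 32762385 to 32809356, plus strand) had 37503, 36923, 35324 and 35822 counts in control libraries and 49719, 49202, 49541 and 51146 in knockdown libraries. The groups did not overlap, and the log2 fold change was 0.46 with a standard error of 0.0260 (limma adjusted p = 3.12e-21), a 1.37-fold rise of the mean. The summed normalized counts of the 9 genes were 45027 to 47712 in control libraries and 62083 to 64406 in knockdown libraries.

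Within each library the ratio of 2 genes does not depend on the scaling between libraries. The DNMT3A to DNMT3B ratio of counts was 0.0592, 0.0563, 0.0598 and 0.0587 in controls and 0.0663, 0.0685, 0.0681 and 0.0691 in knockdown libraries. All knockdown libraries were above all control libraries, with a difference of 0.22 on the log2 scale (two-sided exact permutation p = 0.0286, n = 4 each, the smallest that 4 against 4 can give, and 0.0286 after adjustment over the 4 ratios computed). Per kilobase, DNMT3B made up 93.5% ± 0.0306 of the sum of the 3 methyltransferases in controls and 93.8% ± 0.0282 in knockdown cells. DNMT3A made up 2.11% ± 0.0545 and 2.46% ± 0.0427, and DNMT1 fell from 4.36% ± 0.0654 to 3.71% ± 0.0601 of that sum (SD, n = 4). None of these shares overlapped between groups. The shares have a fixed sum, so they are not separate observations. Among all single genes, 56.7% did not overlap between groups. How common such separation is for ratios of arbitrary gene pairs was not tested, here or for the ratios below. With principal-transcript lengths the DNMT1 share was larger, 7.15% ± 0.105 in controls and 6.11% ± 0.0969 in knockdown cells.

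The maintenance arm rose as well, UHRF1 by more than DNMT1. DNMT1 (ENSG00000130816, chromosome 19, 10133345 to 10231286, minus strand) was counted at 3635, 3713, 3469 and 3531 in control libraries and at 4232, 4062, 4184 and 4213 in knockdown libraries. This was the smallest rise among those called, 1.16-fold without overlap (log2 fold change 0.22, standard error 0.0331, limma adjusted p = 1.08e-07). With library totals its log2 fold change was 0.11. Exons of S1PR2, on the same strand, overlap those of DNMT1 in GENCODE, and S1PR2 went from 153 ± 6.77 to 132 ± 6.35 counts. UHRF1 (ENSG00000276043, chromosome 19, 4903080 to 4962154, plus strand) had 296, 282, 267 and 252 counts in controls and 428, 394, 418 and 482 in knockdown libraries. Here too all knockdown libraries were higher, with replicate 4 the highest, and the log2 fold change was 0.65 with a standard error of 0.0666 (limma adjusted p = 4.12e-12). The UHRF1 to DNMT1 ratio of counts went from 0.0765 ± 0.00408 to 0.103 ± 0.00774 without overlap, a difference of 0.43 on the log2 scale (two-sided exact permutation p = 0.0286, n = 4 each).

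**Figure D3:**
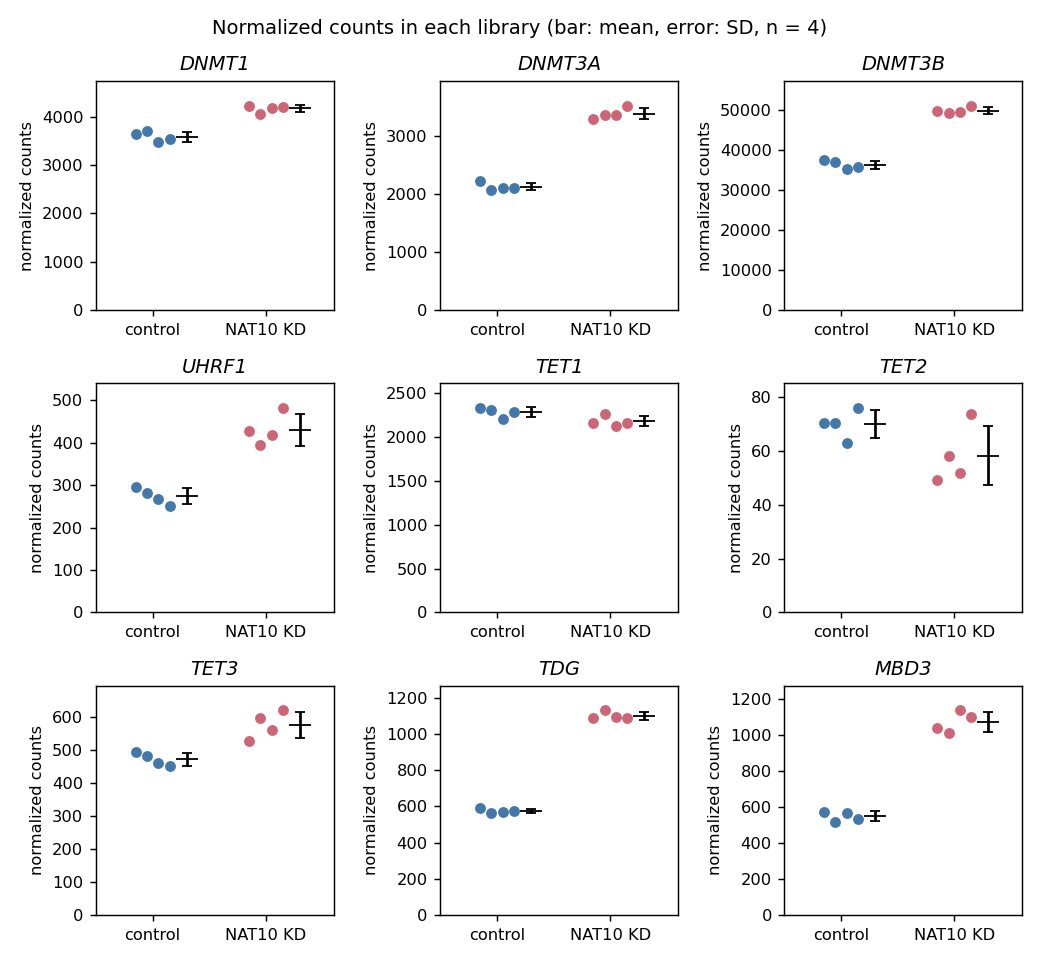
Normalized counts of each gene in each of the 4 control and 4 knockdown libraries, with the mean and SD beside the points; every vertical axis starts at 0. The groups are separate for all genes shown except TET1 and TET2, with TDG between 564 and 593 in controls and between 1086 and 1129 in knockdown.

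The oxidases did not move together. TET1 (ENSG00000138336, chromosome 10, 68560656 to 68694482, plus strand) was counted at 2326, 2300, 2197 and 2283 in control libraries and at 2161, 2261, 2126 and 2156 in knockdown libraries. The groups overlapped, since control replicate 3 lay below knockdown replicate 2. The log2 fold change was -0.065 with a 95% interval of -0.14 to 0.0071 (limma adjusted p = 0.109), so a rise of the size of DNMT1 lay outside the interval. TET1 was called lower without knockdown replicate 2 (-0.084, limma adjusted p = 0.0475). Over all 17 alternatives, that fit included, its adjusted p-values ran from 3.07e-05 (library totals) to 0.226.

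TET3 (ENSG00000187605, chromosome 2, 73986404 to 74108176, plus strand), the member of the family best known from the oocyte and the nervous system, was counted at 495, 482, 460 and 451 in controls and at 528, 596, 561 and 620 in knockdown. It rose 1.22-fold without overlap (log2 fold change 0.29, standard error 0.0556, limma adjusted p = 1.39e-05), and its log2 fold change was 0.18 with library totals (limma adjusted p = 0.00475). TET2 (ENSG00000168769, chromosome 4, 105145875 to 105279816, plus strand), a gene often mutated in blood cancers, was counted at 70.6, 70.4, 63.2 and 76.0 in controls and 49.4, 58.2, 51.8 and 73.9 in knockdown. Knockdown replicate 4 fell within the control range, and the other 3 lay below it. Its log2 fold change was -0.27 with a 95% interval of -0.55 to 0.0012 (limma adjusted p = 0.0755), and -0.39 without knockdown replicate 4 (limma adjusted p = 0.0158), with adjusted p-values from 0.0133 to 0.225 over 16 alternatives. At this depth TET2 varied most between libraries, with a coefficient of variation of 18.9% in knockdown, against 1.72% for DNMT3B.

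Within libraries the TET1 to TET3 ratio of counts was 4.70, 4.78, 4.78 and 5.06 in controls and 4.09, 3.79, 3.79 and 3.48 in knockdown libraries. The groups did not overlap and differed by -0.35 on the log2 scale (two-sided exact permutation p = 0.0286, n = 4 each). Per kilobase, TET1 remained the leading oxidase, with 85.2% ± 0.301 of the sum of the 3 TET genes in controls and 82.3% ± 1.08 in knockdown, while TET3 went from 13.4% ± 0.379 to 16.5% ± 0.875. The ratio of DNMT3B to TET1, the writer and the oxidase typical of these cells, was 16.12, 16.05, 16.08 and 15.69 in controls and 23.0, 21.8, 23.3 and 23.7 in knockdown, higher in every knockdown library. This difference was 0.52 on the log2 scale (two-sided exact permutation p = 0.0286, n = 4 each).

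**Figure D4:**
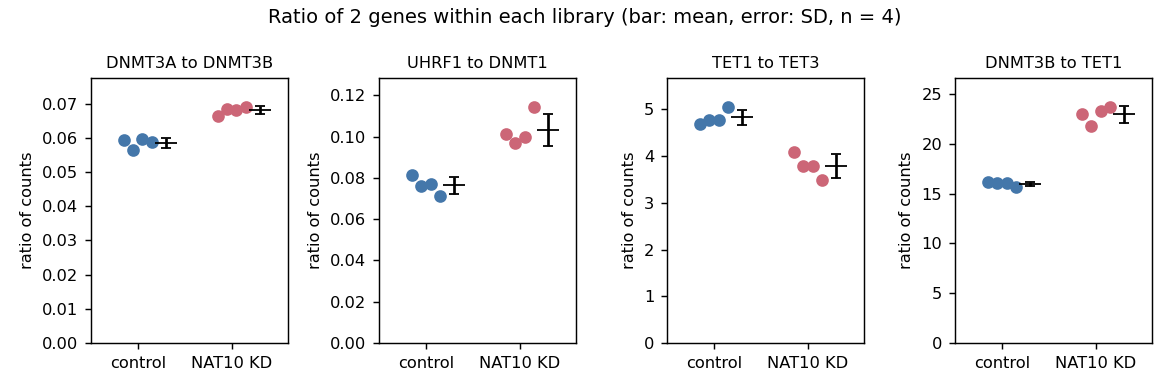
Ratio of the normalized counts of 2 genes within each library, with mean and SD over 4 libraries per group; every vertical axis starts at 0. DNMT3A to DNMT3B, UHRF1 to DNMT1 and DNMT3B to TET1 were higher in all knockdown libraries and TET1 to TET3 was lower.

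The largest rises were in TDG and MBD3. TDG (ENSG00000139372, chromosome 12, 103965804 to 103988874, plus strand), which removes oxidised 5-methylcytosine and mismatched thymine, was counted at 593, 564, 570 and 574 in controls and at 1090, 1129, 1091 and 1086 in knockdown. The mean rose 1.91-fold, a log2 fold change of 0.93 with a standard error of 0.0451 (limma adjusted p = 3.98e-24). TDGP1, a processed pseudogene of TDG on another part of chromosome 12, was counted at 39.4 ± 6.21 and 84.1 ± 11.5. The split of reads between a gene and its processed pseudogene is uncertain, and their sum went from 614 ± 14.7 to 1183 ± 21.998, a ratio of 1.93. MBD3 (ENSG00000071655, chromosome 19, 1573596 to 1592801, minus strand) had 573, 518, 567 and 534 counts in controls and 1038, 1010, 1135 and 1098 in knockdown. This was a 1.95-fold rise with no overlap (log2 fold change 0.96, standard error 0.0485, limma adjusted p = 2.28e-23). Of all 17546 genes, 10.4% had a larger absolute log2 fold change than MBD3 and 11.2% a larger one than TDG, and among genes of 5 CPM or more these shares were 4.82% and 5.31%. A second protein-coding gene, AC005943.1, shares exons with MBD3 on the same strand, so the split of reads there depends on the annotation used for counting. The genes most like MBD3 over the 8 libraries, among 11478 with a symbol and at least 5 CPM, were TUBB6, CREBBP and KCTD15, whose profiles relative to their control means differed from that of MBD3 by a root mean square of 0.0471, 0.0528 and 0.0537 on the log2 scale. In all, 67 genes lay within 0.1, so this likeness was common.

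Other genes of the pathway were called in both directions. The list counts here and below are to be read beside the shares over all genes, 32.3% called higher and 32.4% lower. Among genes of at least 5 CPM these shares were 39.8% and 32.7%, and with library totals 23.2% and 41.9% over all genes. Whether any list differs from these shares was not tested. Of 10 genes listed as MBD-family members or other candidate readers of DNA methylation, 2 were higher and 7 lower (1 and 8 with library totals). Their median log2 fold change was -0.18, and whether each of them binds methylated DNA was not tested. MBD5 fell from 378 ± 9.47 to 223 ± 20.7 counts (-0.76), and the zinc finger proteins ZBTB38 and ZBTB4, which bind methylated CpG, changed by -0.41 and -0.28. Of 13 NuRD subunits other than MBD3, 6 were higher and 4 lower (4 and 5 with library totals), with a median of 0.056. CDK2AP1 rose from 2412 ± 98.6 to 3567 ± 187 counts (0.56) and the metastasis-associated subunit MTA3 by 0.42, while the remodeller CHD3 fell from 501 ± 26.0 to 321 ± 20.6 (-0.64).

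Among factors that help or recruit the methyltransferases, 6 of 14 measured were higher and 4 lower (3 and 6 with library totals). Over all genes 32.3% were higher and 32.4% lower. NSD1, which places the H3K36 dimethyl mark that DNMT3A binds, rose from 3496 ± 95.5 to 5763 ± 109 counts (log2 fold change 0.72, limma adjusted p = 1.85e-25). Among genes linked to ICF syndrome, in which DNMT3B is also mutated, ZBTB24 rose by 0.58 and CDCA7 fell from 2321 ± 21.8 to 1590 ± 105 counts (-0.55). HELLS, a further ICF gene added after its values were seen, was lower too (-0.21, limma adjusted p = 7.65e-07). Of 14 TET partners and genes of cofactor supply, 5 were higher and 7 lower (4 and 7 with library totals). OGT, the O-GlcNAc transferase that binds TET proteins, fell from 4757 ± 104 to 2834 ± 58.6 counts (-0.75, limma adjusted p = 1.03e-25). The isocitrate dehydrogenases, which make the 2-oxoglutarate used by TET enzymes, differed, with IDH1 up by 0.42 and IDH2 changed by -0.47.

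Among base excision repair and related genes, not all of which act after TDG, 6 of 23 measured were higher and 7 lower (3 and 11 with library totals). Their median log2 fold change was -0.013. The flap endonuclease FEN1 rose by 0.44 and the abasic site endonuclease APEX1 by 0.30 (0.20 with library totals), and the glycosylase NEIL2 changed by -0.53. Of 19 genes listed under the supply of S-adenosylmethionine, the methyl donor, 7 were higher and 7 lower (4 and 11 with library totals). Whether each of them supplies this donor was not tested. MAT2A, the synthetase of this donor outside the liver, rose from 4577 ± 150 to 7246 ± 201 counts (0.66), whereas MTHFD2 changed by -0.62 and AHCYL1 by -0.55.

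Germline genes that are known to be silenced by promoter methylation in somatic cells were mostly scarce, and 14 of 28 were among the genes of the table. Of these 14, 7 were lower and 2 higher (7 and 1 with library totals), with a median log2 fold change of -0.57. The table holds only genes with 10 reads in 4 libraries or more, so a gene low in one group entered it through the other. In 3 of the 14 genes, MOV10L1, TEX19 and SYCP1, at most 1 knockdown library reached 10 reads, and 2 of these, MOV10L1 and TEX19, are among the 7 lower. These counts and the median therefore describe the genes that entered and not the list. PIWIL2, a piRNA-binding protein, went from 239 ± 12.6 to 166 ± 16.7 counts, MAGEA4 from 95.04 ± 5.18 to 30.4 ± 11.0 and MOV10L1 from 16.01 ± 2.50 to 4.09 ± 1.85. The log2(value + 1) scale understates changes at such low counts. DNA methylation itself was not among the data used here.

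**Figure D5:**
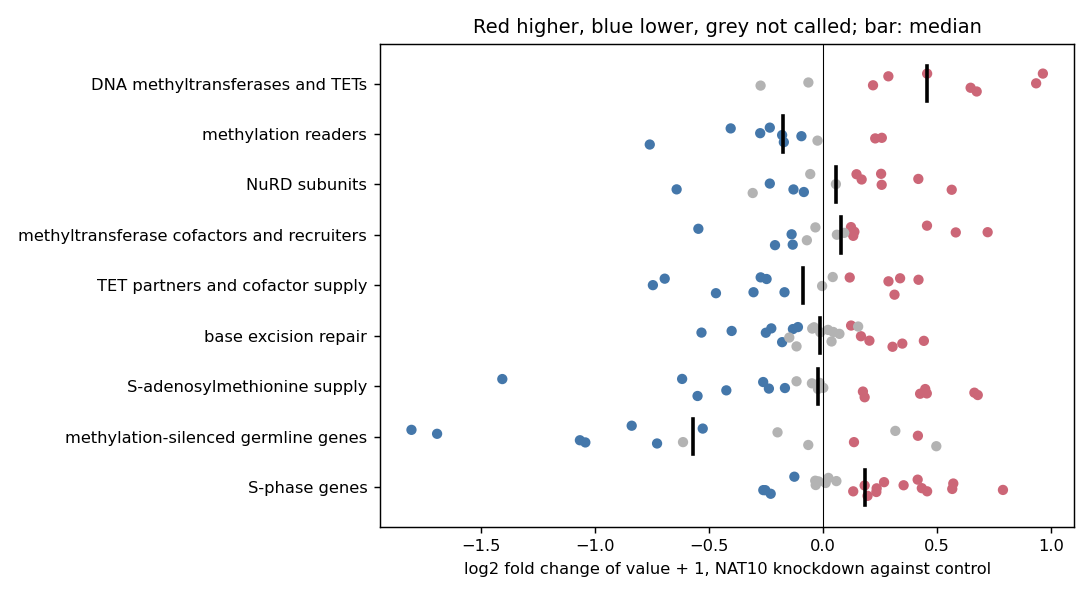
Log2 fold change of value + 1 for the measured genes of each list shown, 1 point per gene (red called higher, blue lower, grey not called), with vertical jitter only for legibility and a bar at the list median. Medians lay at 0.46 for the DNA methyltransferases and TET genes, at -0.18 for the genes listed as methylation readers and at -0.57 for methylation-silenced germline genes.

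Other gene groups moved beside these results. DNMT1 and UHRF1 are known to be expressed with the S phase, and of 23 S-phase genes 13 were higher and 4 lower (11 and 8 with library totals), with a median of 0.18. Their summed counts were 53854 to 54636 in controls and 62250 to 63738 in knockdown. MCM2 rose by 0.79, MCM5 by 0.57 and SLBP by 0.57 on the log2 scale. DNMT3B and TET1 mark pluripotent cells, and of 13 pluripotency markers 9 were higher and 0 lower (8 and 3 with library totals), with a median of 0.25, LIN28B up by 0.80, L1TD1 by 0.55 and ZFP42 by 0.47. Their sum was 91707 to 94561 in controls and 109183 to 112078 in knockdown. At an unadjusted p under 0.05 1 of these markers was lower, POU5F1 (-0.50, limma adjusted p = 0.0642), at the low count of 24.0 in controls given above. With edgeR and DESeq2, 0 were called lower by each.

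Of markers of other cell types, 7 of 12 for fibroblasts, 4 of 10 for neuroectoderm, 3 of 12 for mesoderm and endoderm, 4 of 11 for trophoblast and amnion and 2 of 8 for blood and endothelium were among the genes of the table. Fibroblast markers counted 5 higher and 1 lower (5 and 2 with library totals). Their sums were 22087 to 22810 in controls and 20916 to 22542 in knockdown, and the defining markers COL3A1, DCN and LUM were not among the genes of the table. THY1, which stem cells also express, was the most counted of them in controls and fell from 12941 ± 342 to 7899 ± 260 counts (-0.71). The sums therefore do not show the direction of the other markers. COL1A1 rose from 6843 ± 230 to 10990 ± 648 counts (0.68) and POSTN by 2.005. TWIST1, PDGFRA and COL1A2 were higher too (1.85, 1.33 and 0.21), and PDGFRB was not called. Trophoblast and amnion markers summed to 2964 to 3244 in controls and 4020 to 4465 in knockdown, nearly all of it KRT18, which went from 3061 ± 142 to 4113 ± 168. GATA3 rose from 7.01 ± 4.31 to 27.4 ± 2.62 counts and GATA2 from 5.58 ± 1.22 to 13.5 ± 3.42, and CDX2, TFAP2A and HAND1 were not among the genes of the table. GATA3 and GATA2 reached 10 reads in at most 1 control library and so entered the table through the knockdown libraries. By limma 3 of the 4, GATA3 and GATA2 among them, were higher and 0 lower, also at an unadjusted p under 0.05. DESeq2 called 3 of 4 higher, and edgeR, which tested only 3 of them, called 2 higher. Both called 0 lower. Neuroectoderm markers counted 1 higher and 1 lower (1 and 3 with library totals) and summed to 387 to 429 and 306 to 332. DCX changed by -1.50. PAX6, at 2.42 ± 0.964 and 25.1 ± 2.05, reached 10 reads in 0 control libraries and entered the table through the knockdown libraries. Mesoderm and endoderm markers summed to 168 to 184 and 159 to 185, with TBX6 changed by -0.97, MIXL1 by 1.08 and CXCR4 by 0.49, the last not called with library totals (limma adjusted p = 0.0526). TBXT, EOMES and SOX17 were not among the genes of the table. The blood and endothelial genes KDR and RUNX1 did not pass the test (limma adjusted p = 0.240 and 0.215), with 0 of 2 at an unadjusted p under 0.05 and by edgeR and DESeq2. With library totals KDR was called lower (-0.16, limma adjusted p = 0.000106). Sums of the 2 genes were 2752 to 2938 in controls and 2649 to 2807 in knockdown. The part of S-phase, pluripotency and other cell types in the changes of the methyltransferases and TET genes was not tested.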

How the data were processed

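Per the submitters' processing notes, which give no order, the authors' tools were DESeq2 1.26.0, featureCounts 2.0.3, HISAT2 2.2.1, fastp 0.21.1 and SAMtools 1.12, on hg38. The sources used here do not give the annotation or strand setting. The deposited values are a signal: counts divided by a size factor per library. All values were whole multiples of a step for each library within 1e-06 of a read (100% of values), and the factors (0.971 to 1.04) equalled recomputed median-of-ratios factors. All genes reached 10 reads in 4 libraries or more.

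Groups were compared with limma 3.58.1 (trended, robust; R 4.3.3), fitted to log2(value + 1) by group; this scale understates changes of low genes. Adjusted p-values cover all 17546 genes at 0.05. edgeR 4.0.16 and DESeq2 1.42.0 on recovered reads were alternatives, as were limma-voom, library totals, TMM, other pseudocounts, a 5 CPM minimum, a replicate block and leaving out each library. Ratios were tested by exact permutation in scipy 1.17.1; the ratio of DNMT3L to DNMT3B was planned and could not be computed. Genes named from each list were the 3 with the smallest adjusted p, and genes like a member were those with the smallest root mean square difference of log2 profiles. The members and lists were chosen with earlier results of these data known. Each library counted as 1 sample. Chi-square per gene between library pairs was 1.79 to 2.52 within groups and 28.1 to 29.1 between them, which cannot show whether libraries stem from separate cultures. In the library with the fewest reads a count of 0 leaves room for 0.193 CPM (3 counts, counting error only). Names came from an Ensembl ID table, coordinates and lengths from GENCODE release 29. Figures used matplotlib 3.10.9.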

Additional observations from a re-analysis of the deposited data

Results flagged for a closer look

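In TDG, knockdown replicate 2 (1129 normalized counts) stood apart from the other 3 knockdown libraries (1086 to 1091), with a gap of 0.886 of the group's range, above the 95% critical value of Dixon's test for 4 samples. In the DNMT3B to TET1 ratio, control replicate 4 (15.69) stood apart from the other 3 controls (16.12, 16.05 and 16.08). The gap was 0.839 of the range, taken on the log2 scale of the ratio. In all 28 groups of values were examined, and chance flags about 1 in 20. Neither library lay near the other group, as TDG controls reached 593 and the lowest knockdown ratio was 21.8.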

How the results depend on the processing

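The count of members called higher was 7 under all 18 alternatives. The count of members called lower was 0 in the main fit, 2 with library totals (TET1 at -0.17 and TET2 at -0.38), and 0 to 1 when leaving out 1 library; the value 1 arose without knockdown replicate 2 (TET1) and without knockdown replicate 4 (TET2). Counts over all genes stayed within 1.5 times, at 4079 to 5681 higher and 3850 to 7349 lower. Replicate numbers did not pair the libraries (correlations of same-numbered deviations from -0.13 to -0.011), and a fit with the replicate block kept 7 members higher and 0 lower, with 5592 and 5625 genes called. For the ratios, the exact test cannot go below p = 0.125 with 4 pairs under the replicate block or below 0.0571 with 3 against 4 when 1 library is left out, so no call was possible there. The mean paired differences equal the unpaired ones by construction and are no further check. They were 0.22 for DNMT3A to DNMT3B, 0.43 for UHRF1 to DNMT1, -0.35 for TET1 to TET3 and 0.52 for DNMT3B to TET1. In the same order, leaving out each library gave 0.20 to 0.23, 0.38 to 0.46, -0.39 to -0.31 and 0.50 to 0.55. Depth limits TET2, at about 4.02 CPM, most. TET2 was not tested among genes of at least 5 CPM.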
